A study of Mus musculus with 15 samples.

Results

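Of the 14237 genes in the deposited expression table, 72 were histone genes, chosen by name. Of these, 60 were clustered genes (symbols that open with Hist1h, Hist2h, Hist3h or Hist4h), with 5 coding for the linker histone H1, 14 for H2A, 17 for H2B, 11 for H3 and 13 for H4. The largest cluster, Hist1 on chromosome 13, held 49 of them, Hist2 on chromosome 3 held 7, Hist3 on chromosome 11 held 3 and Hist4 on chromosome 6 held 1. The other 12 were variant genes, with 2 for H1, 6 for H2A and 4 for H3. They were set apart by symbol and not by position, and 1 of them, H2afj, lies close to Hist4h4 on chromosome 6. Of the 72, 3 (Hist3h2bb-ps, H3f3a-ps2 and H3f3c) are annotated as processed pseudogenes in GENCODE M21. The tissue was the optic nerve, taken from adult mice of the C57BL/6J strain, in 3 groups of 5 biological replicates numbered 2 to 6. Crush AAV-CNTF nerves belonged to eyes that had received AAV2 carrying a secretable form of the cytokine ciliary neurotrophic factor (CNTF) by intravitreal injection, with the nerve crushed 2 weeks later and taken 7 days after the crush. Crush AAV-null nerves had the same schedule with the control virus AAV-null. Sham nerves also came from AAV-null eyes, and were exposed but not crushed, at times the labels do not give. All 15 nerves therefore belonged to an injected eye, and no uninjected nerve is among the samples. The virus was put into the eye and not into the nerve, whose RNA is that of its glia, vessels, sheath and any infiltrating cells, since the retinal ganglion cells have their cell bodies in the retina. Mog, a myelin protein gene of oligodendrocytes and so a defining marker of this tissue, averaged 133 ± 29.05 CPM in crush AAV-CNTF, 148 ± 12.1 in crush AAV-null and 308 ± 33.9 in sham nerves (SD, n = 5 each).

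Histones are the proteins around which DNA is wound, with H2A, H2B, H3 and H4 in the core of each nucleosome and H1 on the linker DNA. Clustered histone genes are transcribed mostly in S phase, when new chromatin is assembled behind the replication fork, and their mRNAs mostly end in a conserved stem-loop in place of a poly(A) tail, so they are read well in libraries made from total RNA and poorly in libraries selected for poly(A). Variant genes such as H3f3a, H3f3b and H2afz are transcribed throughout the cell cycle and in resting cells, carry poly(A) tails, and supply histones that are deposited outside replication. In a normal adult optic nerve few cells divide, and after a crush, microglia, macrophages, glial precursors and cells of the sheath are known to divide around the lesion.

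The stem-loop is the sequence that sets the clustered mRNAs apart, and 7 sites are printed because the results turn on these genes. Its 16-base consensus occurred in transcripts of 80 of 55450 genes in GENCODE M21 (0.144%), and among the histone genes in 40 clustered genes and 1 variant gene, H2afx. Clustered genes without a match do not thereby lack the stem-loop. Hist1h2bh and Hist1h2bm were not matched to GENCODE M21. Others have short annotated transcripts, such as Hist1h2an with 393 bases and Hist1h4k with 312, and a site beyond an annotated end could not be found. The sites below are written as DNA, 5′ to 3′ on the strand of the gene, with 5 flanking bases on each side in lower case and the stem and loop in capitals (mm10).
Hist1h1e: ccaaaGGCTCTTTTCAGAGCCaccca
Hist2h2aa1: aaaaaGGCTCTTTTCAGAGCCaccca
Hist1h2bk: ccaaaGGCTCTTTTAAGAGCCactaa
Hist2h3c2: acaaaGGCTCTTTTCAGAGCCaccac
Hist1h4a: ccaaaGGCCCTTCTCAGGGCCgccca
Hist1h4d: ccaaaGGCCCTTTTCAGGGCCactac
H2afx: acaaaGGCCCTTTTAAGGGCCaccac
These sites lie at chr13:23621782-23621797 for Hist1h1e, chr3:96246032-96246047 for Hist2h2aa1, chr13:22036300-22036315 for Hist1h2bk, chr3:96238485-96238500 for Hist2h3c2, chr13:23760800-23760815 for Hist1h4a, chr13:23581950-23581965 for Hist1h4d and chr9:44335240-44335255 for H2afx, all in annotated transcripts of those genes. The form printed for Hist1h1e, Hist2h2aa1 and Hist2h3c2 was the commonest, in 21 of the histone genes, and that of Hist1h4d was found in 7 genes, all of them H4. The form of H2afx was found in no other histone gene. Of the 40 clustered genes with the site, 19 had an annotated transcript that ended within 60 bases after it, and in the other 21 every annotated transcript with the site ran on past it. In H2afx, the transcript ran on for 822 bases.

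The 5′ ends were read from RefSeq promoter windows of 300 bases (250 before to 50 after the start, GRCm38.p6), which were found for 64 of the 72 genes. The 4 motifs searched for, each on both strands, were CCAAT with the TATAAA box, the octamer ATTTGCAT and the AAACACA box known from H1 promoters. CCAAT was in 45 of 54 clustered and 6 of 10 variant windows, against 37.41% of all 32851 windows of the same length. The 45 included all 5 H1, all 14 H2A, all 14 H2B and all 9 H3 windows, but 3 of 12 for H4. TATAAA was in 32 of 54 clustered and 1 of 10 variant windows, against 13.62% of all. The octamer was in 12 of 54 clustered windows, 6 of them H2A and 6 H2B, and in 1 of 10 variant windows, against 1.74% of all. AAACACA was in 4 of 5 clustered H1 windows and in 6 of 54 clustered windows, against 7.18% of all. Windows are not all separate sequence, since those of 8 pairs of H2A and H2B genes on opposite strands overlap by 233 to 279 bases. The same site can thus be counted for both genes of a pair, as is the octamer of Hist1h2ah and Hist1h2bk. The windows of 3 genes with large changes are printed with these motifs, on either strand, in capitals, none of which overlapped another. Hist1h2bk (chr13:22035571-22035870, plus strand) holds all but the H1 box, Hist1h1b (chr13:21780576-21780875, minus strand) holds all but the octamer, and Hist1h4a (chr13:23761200-23761499, minus strand) holds CCAAT and TATAAA.
Hist1h2bk: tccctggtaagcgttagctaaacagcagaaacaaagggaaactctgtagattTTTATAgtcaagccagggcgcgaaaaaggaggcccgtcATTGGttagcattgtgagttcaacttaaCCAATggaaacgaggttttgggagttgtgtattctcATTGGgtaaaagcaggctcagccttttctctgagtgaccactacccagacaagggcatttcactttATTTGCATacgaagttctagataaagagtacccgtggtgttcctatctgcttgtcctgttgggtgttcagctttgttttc
Hist1h1b: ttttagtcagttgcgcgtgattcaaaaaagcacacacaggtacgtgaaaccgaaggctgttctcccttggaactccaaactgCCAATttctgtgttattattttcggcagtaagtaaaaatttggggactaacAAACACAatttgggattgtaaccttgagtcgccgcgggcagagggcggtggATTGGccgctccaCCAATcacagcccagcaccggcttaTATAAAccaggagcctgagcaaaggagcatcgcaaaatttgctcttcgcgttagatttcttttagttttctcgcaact
Hist1h4a: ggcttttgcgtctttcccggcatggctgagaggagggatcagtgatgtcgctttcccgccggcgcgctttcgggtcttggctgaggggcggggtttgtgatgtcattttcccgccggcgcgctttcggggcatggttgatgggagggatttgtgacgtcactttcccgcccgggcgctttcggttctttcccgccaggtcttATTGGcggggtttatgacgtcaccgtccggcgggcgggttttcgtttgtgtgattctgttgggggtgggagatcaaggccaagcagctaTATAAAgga
A match is a run of letters and not a shown binding site. In Hist1h4a the TATAAA match lies after the start, and in Hist1h2bk it lies on the opposite strand.

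Per library, the deposited table adds up to 19856688 to 29558293 expected counts, and the histone genes took 0.245 to 0.296% of them in crush AAV-CNTF, 0.245 to 0.353% in crush AAV-null and 0.119 to 0.145% in sham libraries. Crush AAV-null replicate 3 had the highest share, and in its group the highest sums of clustered H2A, H3 and H4. Crush AAV-null replicate 6 stood apart on the second principal component, at -99.7 against -8.98 to 24.0 for the others. Nothing in the labels says more of the replicates than that they are biological, so p-values measure the spread between these samples.

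The first comparison asked what a crush did to histone RNA under the control virus. Clustered histone RNA was higher in every crush AAV-null library than in any sham library, and by more than variant histone RNA. Levels are given as CPM, in which TMM factors make the library sizes comparable, and the calls rest on an adjusted p under 0.05 in quasi-likelihood tests by edgeR, adjusted after Benjamini-Hochberg over all 14194 genes tested. The 60 clustered genes together had 1560.3, 1764, 1514, 1852 and 1730.3 CPM in the crush AAV-CNTF libraries, 1501, 2213, 1446, 1482 and 1674 CPM in the crush AAV-null libraries and 712, 582, 654, 645 and 784 CPM in the sham libraries. The lowest crush library lay above the highest sham library, and the crush groups overlapped. The group means were 1684 ± 142 CPM in crush AAV-CNTF, 1663 ± 319.7 in crush AAV-null and 675 ± 76.2 in sham nerves (SD, n = 5 each), a 2.46-fold ratio of crush AAV-null over sham. The 12 variant genes together had 967, 936, 826, 961 and 979 CPM in the crush AAV-CNTF libraries, 894, 1034, 852, 946 and 998 CPM in the crush AAV-null libraries and 810.2, 772, 799.6, 682 and 761 CPM in the sham libraries. Here too crush and sham libraries did not overlap, but the ratio of the crush AAV-null mean over the sham mean was 1.24-fold, with 934 ± 62.1 CPM in crush AAV-CNTF, 945 ± 74.4 in crush AAV-null and 765 ± 50.5 in sham nerves (SD, n = 5 each). In these bulk samples, more cells of a type and more RNA per cell cannot be told apart.

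**Figure D1:**
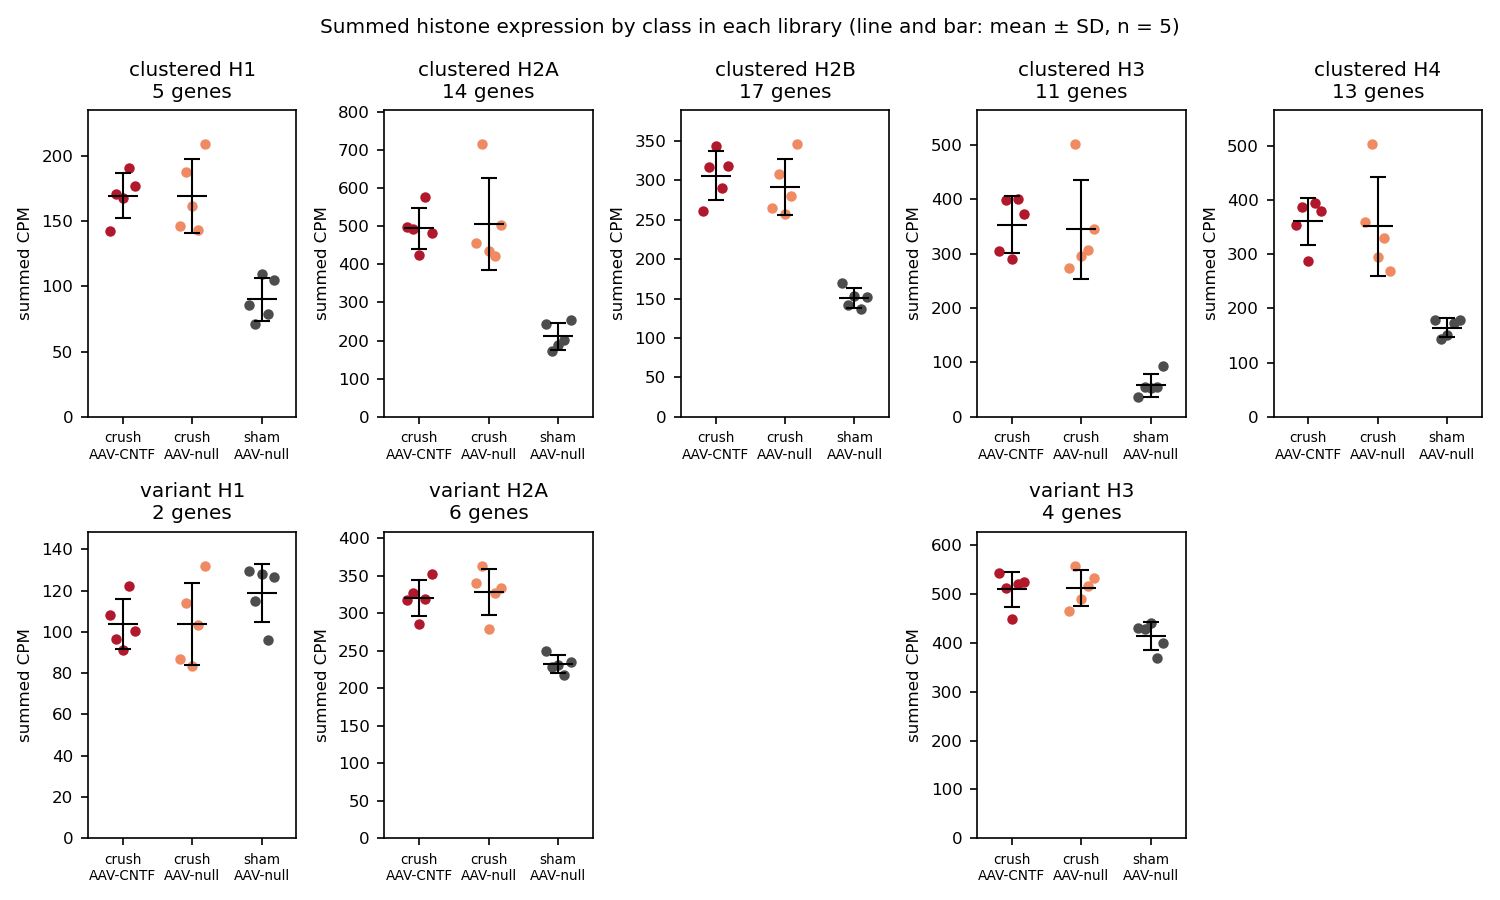
Summed levels of the histone genes of each class in every library, in CPM, for crush AAV-CNTF, crush AAV-null and sham nerves, with clustered and variant genes apart. Points are libraries and bars are the mean ± SD of 5. In all 5 clustered classes every crush library lies above every sham library, and the summed variant H1 is the class in which the groups overlap.

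Of the 60 clustered genes, 43 rose in crush AAV-null against sham nerves by edgeR, 0 fell and 17 did not pass the test, while 14.7% of all genes tested rose and 12.9% fell. Their median log2 fold change was 2.19, with a range from -0.74 to 5.49, against a median of 0.00484 over all genes. Values of crush and sham libraries did not overlap for 35 of the 60, all higher after crush, against 10.5% of all genes in that direction. Of the 12 variant genes, 5 rose, 0 fell and 7 did not pass, with a median log2 fold change of 0.33 and a range from -0.25 to 1.49. The groups did not overlap for 3 of them. The count of 5 was 3 without any 1 of crush AAV-null replicate 5, sham replicate 5 and sham replicate 6, and also without crush AAV-null replicate 6 and sham replicate 6 together. None of the 72 was lower by edgeR even at an unadjusted p under 0.05 (0 genes), and DESeq2 called 0 lower, while limma-voom called 1, H1f0. All 72 passed the filter on low counts. The deposited table, however, lists a gene where its FPKM (fragments scaled by gene length and depth) reached 1 in at least 4 libraries of some group. In 43 clustered genes the sham group met that limit itself, and 33 of these rose, with a median log2 fold change of 1.87. The other 17 clustered genes met it only in a crush group, a way of entering the table that favours genes higher after crush, and 10 of them rose. Of the 8 clustered genes with the largest changes among those called, 7 are among these 17, all but Hist2h3c2. Of the variant genes, 10 met the limit in sham nerves and 2, the pseudogenes H3f3c and H3f3a-ps2, only in a crush group.

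**Figure D2:**
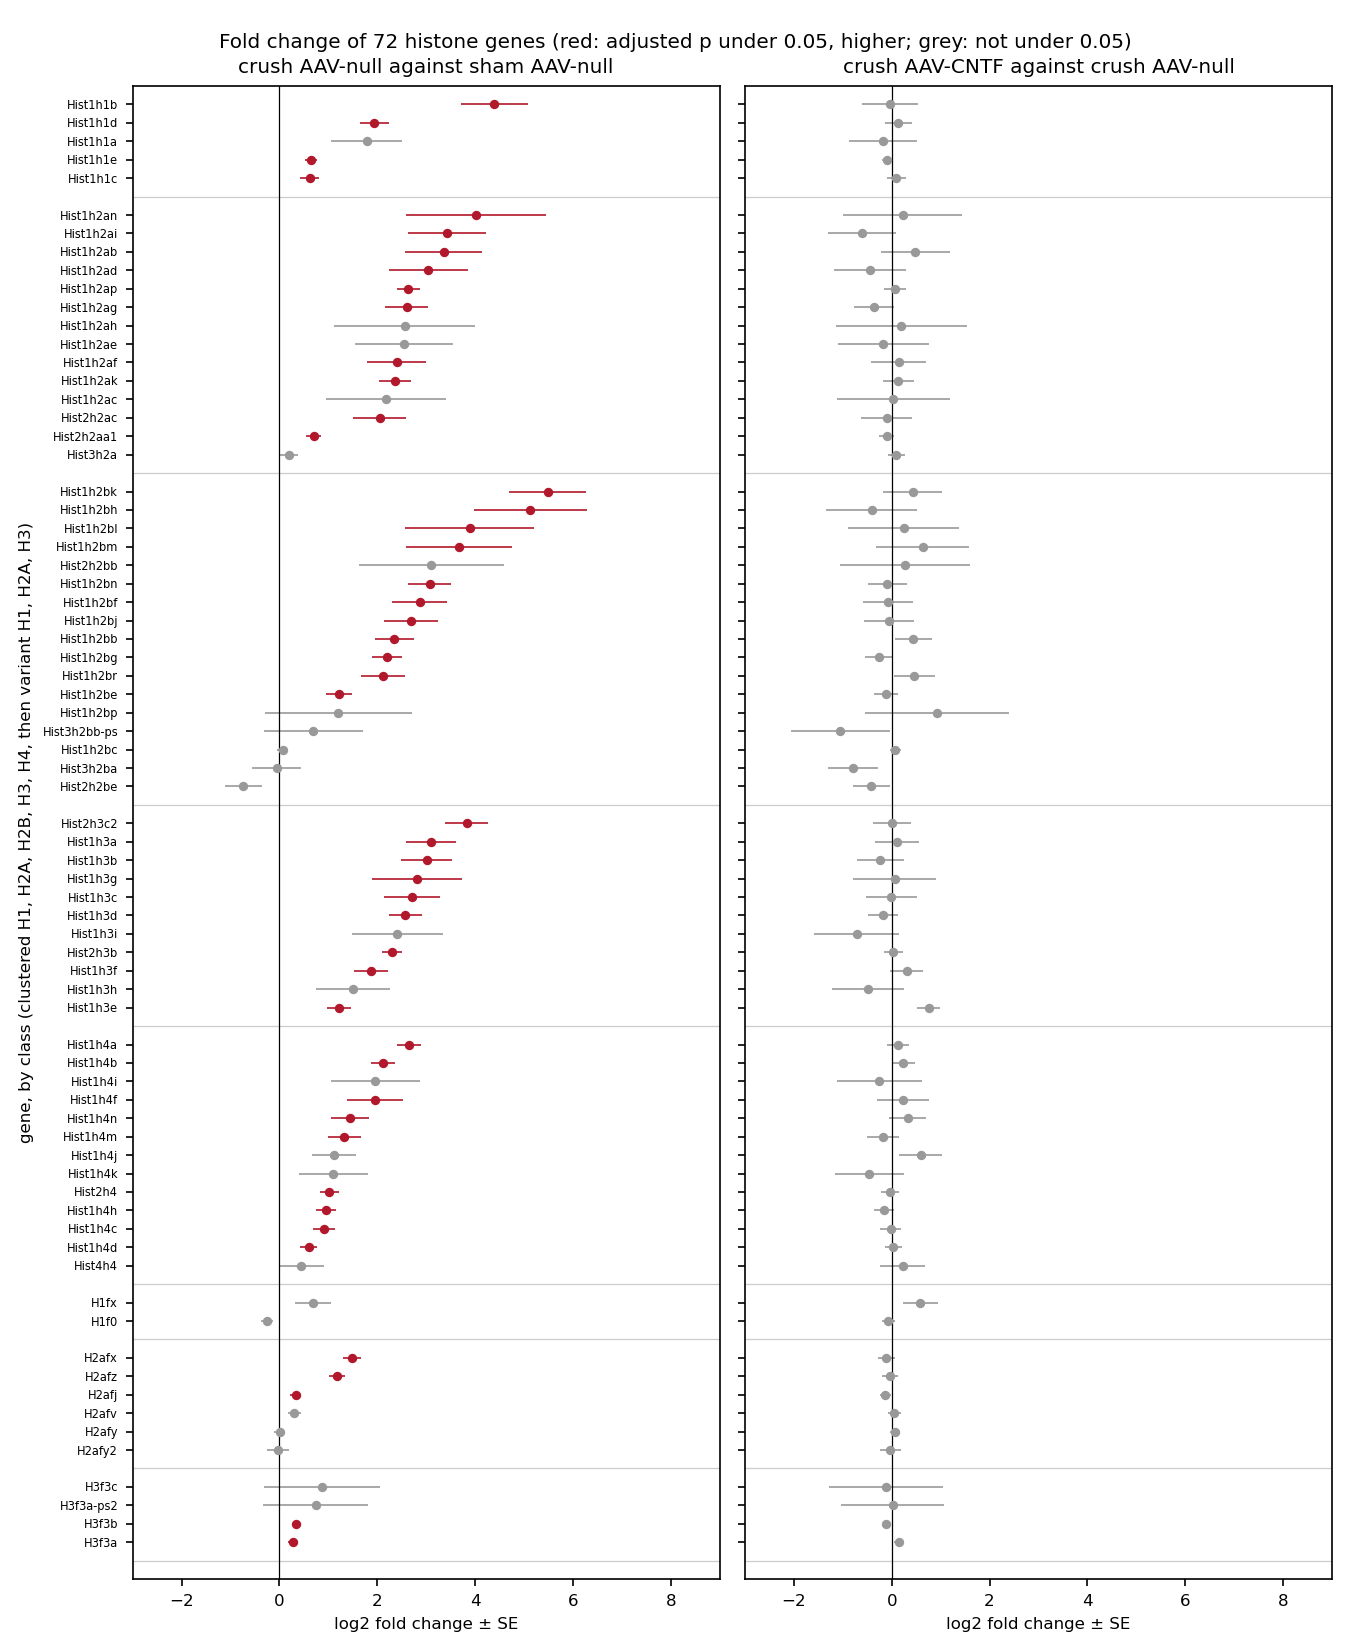
Log2 fold change ± SE of each of the 72 histone genes in crush AAV-null over sham (left) and crush AAV-CNTF over crush AAV-null (right), grouped by histone class. Red points are called higher and grey points are not called. In the left panel 43 clustered and 5 variant genes are red, and in the right panel none is.

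Among the clustered H1 genes, 4 of 5 rose, with a median log2 fold change of 1.79. Summed H1 RNA was 169.6 ± 17.5 CPM in crush AAV-CNTF, 169 ± 28.3 in crush AAV-null and 90.1 ± 16.6 in sham nerves (SD, n = 5 each), a ratio of 1.88-fold for crush AAV-null over sham. Hist1h1b, at chr13:21779883-21780625, codes for a replication-dependent linker histone, and shared none of its 50-base words with other genes of GENCODE M21. It had 8.09, 19.2, 9.49, 18.1 and 17.01 CPM in the crush AAV-CNTF libraries, 15.2, 27.3, 6.24, 15.7 and 9.61 CPM in the crush AAV-null libraries and 0, 0, 0.838, 1.23 and 1.42 CPM in the sham libraries. It was near 0 in every sham library and overlapped in no library with either crush group. It is one of the genes that met the FPKM limit of the table only in a crush group. Its log2 fold change in crush AAV-null over sham was 4.39 ± 0.69 (SE; adjusted p by edgeR = 4.94e-05). Hist1h1e, the clustered H1 gene of the highest FPKM, had 62.02, 67.9, 72.04, 73.4 and 62.96 CPM in the crush AAV-CNTF libraries, 61.3, 67.6, 75.5, 67.9 and 87.2 CPM in the crush AAV-null libraries and 43.2, 37.1, 50.7, 45.8 and 52.9 CPM in the sham libraries. Every crush library was above every sham library, with a log2 fold change of 0.65 ± 0.12 (SE; adjusted p = 0.000317, edgeR). Hist1h1c and Hist1h1d also rose, by log2 fold changes of 0.62 and 1.94. Hist1h1a had a log2 fold change of 1.79 and an adjusted p of 0.0745 by edgeR.

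Clustered H2A genes rose in 10 of 14 cases, with a median log2 fold change of 2.56, and their sum was 495 ± 53.8 CPM in crush AAV-CNTF, 507 ± 121 in crush AAV-null and 212 ± 35.8 in sham nerves (SD, n = 5 each), a ratio of 2.39-fold. Hist2h2aa1, at chr3:96245497-96246082, had the highest FPKM of all 72 genes. It had 193, 188, 149, 246 and 202 CPM in the crush AAV-CNTF libraries, 206, 289.7, 179, 183 and 192 CPM in the crush AAV-null libraries and 151, 123, 103, 113 and 156 CPM in the sham libraries. Crush AAV-null replicate 3 stood above the rest, and every crush AAV-null library was higher than the highest sham library, while 1 crush AAV-CNTF library lay in the sham range. The log2 fold change was 0.70 ± 0.15 (SE; adjusted p = 0.00113, edgeR). Hist1h2ai and Hist1h2an are 2 of the low H2A genes of the Hist1 cluster. Hist1h2ai had 9.98, 4.19, 10.8, 14.7 and 16.2 CPM in the crush AAV-CNTF libraries, 7.38, 29.2, 9.15, 12.4 and 26.9 CPM in the crush AAV-null libraries and 3.92, 0, 3.12, 0 and 0.8501 CPM in the sham libraries. Its lowest crush AAV-null value exceeded the highest sham value, and the log2 fold change was 3.43 ± 0.79 (SE; adjusted p = 0.00225, edgeR), or 4.08 without sham replicate 2. Hist1h2an had 0, 7.42, 2.23, 5.58 and 4.43 CPM in the crush AAV-CNTF libraries, 0, 3.16, 2.22, 6.54 and 4.94 CPM in the crush AAV-null libraries and 0, 0, 0, 0 and 0.972 CPM in the sham libraries. One library of each crush group was at 0, so the groups overlapped, and its log2 fold change of 4.03 ± 1.43 had an adjusted p of 0.0403 by edgeR. That call was lost without any 1 of 9 libraries, namely crush AAV-CNTF replicates 3 and 6, crush AAV-null replicates 3, 5 and 6, and sham replicates 2, 3, 4 and 5, at log2 fold changes of 3.65 to 4.05, and also by limma-voom (adjusted p = 0.298), by DESeq2 (adjusted p = 0.0869) and with only the 10 libraries compared (adjusted p = 0.0503, edgeR). Hist1h2ap, 93.1% of whose 50-base words are shared with other genes, averaged 112 ± 11.4 CPM in crush AAV-CNTF, 107 ± 37.4 in crush AAV-null and 17.2 ± 6.37 in sham nerves (SD, n = 5 each), a log2 fold change of 2.64. Hist3h2a did not pass, at 0.20.

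Clustered H2B was the largest class and had the widest range of log2 fold changes. The top of that range was Hist1h2bk, which met the FPKM limit of the table only in a crush group. Of 17, 11 rose and 6 did not pass, the log2 fold changes ran from -0.74 to 5.49, and the sum was 306 ± 31.1 CPM in crush AAV-CNTF, 291 ± 35.8 in crush AAV-null and 151 ± 12.4 in sham nerves (SD, n = 5 each), a ratio of 1.93-fold. Hist1h2bk, at chr13:22035870-22036345, changed most of all 72 genes. It had 24.96, 19.2, 15.02, 12.7 and 11.5 CPM in the crush AAV-CNTF libraries, 16.8, 15.02, 12.5, 10.8 and 6.94 CPM in the crush AAV-null libraries and 0, 0, 0, 0 and 1.25 CPM in the sham libraries. Sham replicate 6 was the only sham library with any count. That gave a log2 fold change of 5.49 ± 0.79 (SE; adjusted p = 1.97e-05, edgeR). Hist1h2bh had 5.85, 4.53, 4.37, 6.12 and 0.0399 CPM in the crush AAV-CNTF libraries, 3.13, 8.71, 5.04, 4.15 and 6.80 CPM in the crush AAV-null libraries and 0, 0, 0, 0 and 0.729 CPM in the sham libraries. It was likewise counted in 1 sham library, and crush AAV-CNTF replicate 6 lay within the sham range. This was a log2 fold change of 5.13 ± 1.16 (SE; adjusted p = 0.00194, edgeR). Hist1h2bm had 5.01, 4.22, 3.11, 6.27 and 5.19 CPM in the crush AAV-CNTF libraries, 2.98, 5.07, 4.83, 1.76 and 0.677 CPM in the crush AAV-null libraries and 0, 0, 0, 0 and 1.13 CPM in the sham libraries. Hist1h2bl had 0, 2.61, 10.3, 4.25 and 1.72 CPM in the crush AAV-CNTF libraries, 0.978, 1.69, 2.82, 6.499 and 3.96 CPM in the crush AAV-null libraries and 0, 0, 0, 0 and 1.01 CPM in the sham libraries. In both, a single crush AAV-null library fell within the sham range, with log2 fold changes of 3.67 ± 1.08 (SE; adjusted p = 0.0143) for Hist1h2bm and 3.89 ± 1.32 (SE; adjusted p = 0.0325) for Hist1h2bl by edgeR. The call for Hist1h2bl was lost without crush AAV-null replicate 5, at 3.46, without any 1 of sham replicates 2 to 5, at 3.58 to 3.59, and by limma-voom (adjusted p = 0.0864).

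The sham counts of 6 low genes, Hist1h2ah, Hist1h2an, Hist1h2bh, Hist1h2bk, Hist1h2bl and Hist1h2bm, all came from sham replicate 6, with 65, 24, 18, 31, 25 and 28 counts in that order. This set was picked after its values were seen. All 6 met the FPKM limit of the table only in a crush group, and Hist1h2ah was not called. The fold changes of the others rest on that 1 sham library, and no fold without it is given. Reads of these genes can be split with near-identical copies, so the counts of a single copy are uncertain in the one library as in the others.

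Some H2B genes did not move with the rest. Hist1h2bc, the clustered gene of most counts among those that did not pass and the H2B gene of the highest FPKM, lies at chr13:23684199-23692908. It had 113, 107, 112, 112 and 120.4 CPM in the crush AAV-CNTF libraries, 117, 95.4, 110.2, 82.9 and 132 CPM in the crush AAV-null libraries and 119, 103, 99.5, 94.1 and 96.1 CPM in the sham libraries. All 3 groups overlapped, with a log2 fold change of 0.07 ± 0.11 (SE; adjusted p = 0.706, edgeR). Its sign turned to -0.02 without crush AAV-null replicate 6. Hist2h2be had 4.25, 3.399, 4.79, 3.91 and 1.996 CPM in the crush AAV-CNTF libraries, 6.31, 3.24, 3.33, 5.15 and 6.495 CPM in the crush AAV-null libraries and 8.72, 6.97, 9.68, 11.9 and 3.72 CPM in the sham libraries. Most sham libraries lay above the crush libraries, but sham replicate 5 was the highest and sham replicate 6 was within the crush range. The change was, as a log2 fold change, -0.74 ± 0.38 (SE; adjusted p = 0.164, edgeR), which did not pass. None of its 50-base words was shared with another gene. Hist3h2ba and the pseudogene Hist3h2bb-ps also did not pass, at -0.05 and 0.70.

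Clustered H3 differed most as a class. Of 11 genes, 9 rose, with a median log2 fold change of 2.57, and the groups did not overlap for 8. The sum was 353 ± 51.96 CPM in crush AAV-CNTF, 345 ± 91.2 in crush AAV-null and 58.1 ± 21.1 in sham nerves (SD, n = 5 each), a ratio of 5.93-fold for crush AAV-null over sham. Hist2h3c2, at chr3:96238108-96239127, had 68.9, 115, 80.7, 93.2 and 114 CPM in the crush AAV-CNTF libraries, 65.9, 147, 79.02, 92.4 and 87.9 CPM in the crush AAV-null libraries and 5.64, 3.83, 1.07, 4.56 and 17.9 CPM in the sham libraries. The sham libraries stood far below both crush groups, and sham replicate 6 was the highest of them. On the log2 scale the change was 3.83 ± 0.45 (SE; adjusted p = 1.53e-06, edgeR), and 4.65 without sham replicate 6. Hist2h3b, the clustered H3 gene of the highest FPKM, had 67.9, 54.01, 69.97, 80.1 and 71.1 CPM in the crush AAV-CNTF libraries, 48.6, 94.98, 48.1, 59.9 and 83.2 CPM in the crush AAV-null libraries and 9.51, 13.8, 11.1, 16.6 and 16.9 CPM in the sham libraries. Its log2 fold change was 2.30 ± 0.20 (SE; adjusted p = 4.92e-08, edgeR), the lowest adjusted p of the 72 genes, and every crush library lay above every sham library. The Hist1 genes that rose ran from 1.22 for Hist1h3e to 3.11 for Hist1h3a. Hist1h3h and Hist1h3i did not pass, at 1.504 and 2.41 with adjusted p of 0.156 and 0.0575 by edgeR.

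Clustered H4 genes rose in 9 of 13 cases, with the lowest median of the 5 classes, a log2 fold change of 1.12. The sum was 360.1 ± 43.9 CPM in crush AAV-CNTF, 351 ± 91.2 in crush AAV-null and 165 ± 16.6 in sham nerves (SD, n = 5 each), a ratio of 2.13-fold. Hist1h4d, the H4 gene of the highest FPKM, had 91.02, 82.03, 58.4, 95.2 and 100.2 CPM in the crush AAV-CNTF libraries, 87.6, 115, 82.6, 77.9 and 53.7 CPM in the crush AAV-null libraries and 70.8, 42.3, 48.5, 59.6 and 53.8 CPM in the sham libraries. Crush AAV-null replicate 6 lay within the sham range, so the groups overlapped. The log2 fold change was 0.60 ± 0.18 (SE; adjusted p = 0.0156, edgeR), and without crush AAV-null replicate 3 it was 0.46 and no longer passed (adjusted p = 0.0641, edgeR). Hist1h4a, whose stem-loop and promoter are printed above, changed most among the H4 genes and averaged 41.97 ± 4.44 CPM in crush AAV-CNTF, 38.6 ± 16.5 in crush AAV-null and 6.16 ± 1.54 in sham nerves (SD, n = 5 each). That gave a log2 fold change of 2.65 ± 0.24 (SE; adjusted p = 6.75e-08, edgeR). Hist4h4, the single gene of its cluster, did not pass, at 0.45, nor did Hist1h4i, Hist1h4j and Hist1h4k, at 1.96, 1.12 and 1.10.

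The size of the change was smallest for the clustered genes with most RNA in sham nerves. Both quantities hold the same sham values, so this is a description only. Of 36 clustered genes under 5 CPM in sham nerves, 22 rose, with a median log2 fold change of 2.57 and a median gain of 6.82 CPM. All 17 genes that entered the table only through a crush group are among these 36, and of the other 19, 12 rose, with a median of 2.05. Of 16 genes at 5 to 20 CPM, 15 rose, with a median of 2.12 and a median gain of 21.4 CPM. Of 8 genes over 20 CPM, 6 rose, with a median of 0.63 and a median gain of 25.6 CPM. The 8 genes that were already high without a crush thus had the smallest median fold and the largest median gain. Once the 17 were left out, the median log2 fold changes of the lower 2 bands were close, at 2.05 and 2.12. The shares that rose were less alike, at 12 of 19 and 15 of 16. Per kilobase, sham nerves held most RNA of Hist2h2aa1 and Hist1h4d among the clustered genes. Hist2h2aa1 averaged 547 ± 102 FPKM in crush AAV-CNTF, 591 ± 154 in crush AAV-null and 316 ± 55.6 in sham nerves (SD, n = 5 each). Hist1h4d averaged 483 ± 87.8 FPKM in crush AAV-CNTF, 470.4 ± 137 in crush AAV-null and 271 ± 59.01 in sham nerves. Hist1h2ap, well below both in sham nerves, averaged 433 ± 50.8 FPKM in crush AAV-CNTF, 421 ± 174 in crush AAV-null and 58.1 ± 21.9 in sham nerves. FPKM of genes this short depends on the authors' length correction.

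**Figure D3:**
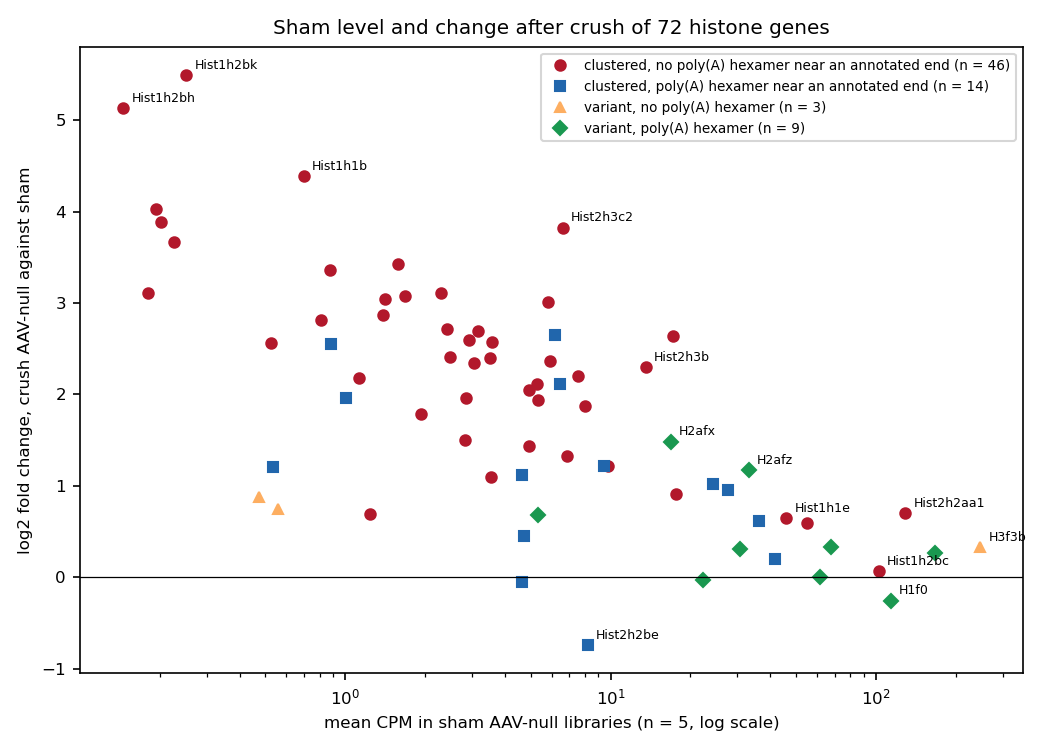
Mean level in sham nerves (CPM, log axis) against the log2 fold change in crush AAV-null over sham for the histone genes, marked by whether an annotated transcript ends near a poly(A) hexamer. Each point is 1 gene. Hist1h2bh and Hist1h2bm, not matched to GENCODE M21, are marked as without a hexamer, although their ends could not be read. The 8 clustered genes over 20 CPM in sham nerves lie at log2 fold changes from 0.07 to 1.02, and the 5 largest fold changes belong to genes under 5 CPM that entered the table only through a crush group. The axes share the sham values.

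The clustered genes were also grouped by their annotated 3′ ends. A poly(A) hexamer (AATAAA or ATTAAA, read on the strand of the transcript) within 40 bases of an annotated end was found for 14 clustered genes. Of these, 6 rose, with a median log2 fold change of 1.07 and a range from -0.74 to 2.65. Of the 46 clustered genes for which none was found, 37 rose, with a median of 2.41 and a range from 0.07 to 5.49. The stem-loop was found in 12 of the 14 and in 28 of the 46. The 2 groups therefore do not set polyadenylated genes against stem-loop genes. The 46 include Hist1h2bh and Hist1h2bm, which were not matched to GENCODE M21 and whose ends could not be read. A hexamer beyond a short annotated transcript could not be found either. Over the genes that met the FPKM limit in sham nerves, the medians were 0.96 for 11 genes with a hexamer and 2.09 for 32 without. The 14 had a median sham level of 6.31 CPM and the 46 one of 2.99 CPM, and the part of that level in the difference was not tested. Hist2h2be and Hist4h4 are among the 14, and Hist1h2bk, Hist1h1b and all 11 H3 genes are among the 46. Of the 12 variant genes, 9 had such a hexamer. Annotation of an end is no measurement of it, and whether these mRNAs carried a poly(A) tail was not measured.

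Among the variant H2A genes 2 rose by more than 2-fold, 1 rose by less and 3 did not pass. H2afx codes for the H2A.X variant, which is phosphorylated at DNA breaks, and is the variant gene with a stem-loop, printed above. It lies at chr9:44334694-44336077. It had 46.4, 43.1, 33.1, 46.0 and 50.3 CPM in the crush AAV-CNTF libraries, 42.1, 56.98, 34.3, 45.3 and 57.4 CPM in the crush AAV-null libraries and 15.6, 12.9, 14.4, 18.4 and 22.9 CPM in the sham libraries. Every crush library lay above every sham library, and the log2 fold change of 1.49 ± 0.18 (SE; adjusted p = 2.42e-06, edgeR) was the largest of the variant genes. H2afz codes for H2A.Z, a variant of nucleosomes beside active promoters. It had 78.3, 64.4, 60.7, 70.7 and 92.3 CPM in the crush AAV-CNTF libraries, 73.4, 99.5, 51.3, 75.5 and 74.97 CPM in the crush AAV-null libraries and 34.5, 28.01, 38.3, 26.6 and 38.4 CPM in the sham libraries. The groups again did not overlap, with a log2 fold change of 1.17 ± 0.16 (SE; adjusted p = 1.24e-05, edgeR). H2afj had 75.6, 86.8, 66.9, 78.6 and 80.3 CPM in the crush AAV-CNTF libraries, 91.1, 77.02, 82.6, 89.7 and 84.4 CPM in the crush AAV-null libraries and 82.3, 73.7, 62.97, 62.1 and 57.0 CPM in the sham libraries. Its crush AAV-null and sham values overlapped, and the log2 fold change was 0.33 ± 0.11 (SE; adjusted p = 0.0295, edgeR). That call was lost without any 1 of crush AAV-null replicates 2 and 5 and sham replicates 4, 5 and 6, at 0.27 to 0.31. H2afv, another gene for an H2A.Z protein, and the macroH2A genes H2afy and H2afy2, whose proteins carry a large extra domain, did not pass. Their log2 fold changes were 0.31, 0.01 and -0.03, with adjusted p of 0.106, 0.98 and 0.948 by edgeR.

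H3f3a and H3f3b code for the same replacement H3 protein and held most of the variant RNA. H3f3b, at chr11:116021912-116027962, had 295, 285, 266, 294 and 290.4 CPM in the crush AAV-CNTF libraries, 296, 346, 279, 309 and 319 CPM in the crush AAV-null libraries and 269, 246, 254, 227 and 236 CPM in the sham libraries. Every crush AAV-null library was above every sham library, by a small margin, with a log2 fold change of 0.33 ± 0.08 (SE; adjusted p = 0.00361, edgeR). H3f3a, at chr1:180800832-180813943, had 247, 226, 182, 224 and 231 CPM in the crush AAV-CNTF libraries, 169, 209, 208, 207 and 210.2 CPM in the crush AAV-null libraries and 159, 182, 186, 141 and 164 CPM in the sham libraries. Crush AAV-null replicate 2 lay among the sham libraries, and the other 4 were above them. Its log2 fold change of 0.27 ± 0.10 (SE) passed by little (adjusted p = 0.0499, edgeR) and no longer did in 16 of 25 alternative settings. These included leaving out any 1 of crush AAV-CNTF replicates 3, 5 and 6, crush AAV-null replicates 3, 4, 5 and 6, and sham replicates 2, 5 and 6, at 0.21 to 0.27, and the replicate block, at 0.27 with an adjusted p of 0.07 by edgeR. It overlaps the antisense gene H3f3aos, and no source used here says how the counting treated strand. Per kilobase, H3f3a averaged 334 ± 48.5 FPKM in crush AAV-CNTF, 301 ± 23.5 in crush AAV-null and 219.5 ± 26.3 in sham nerves, and H3f3b averaged 261 ± 32.4 FPKM in crush AAV-CNTF, 283 ± 40.3 in crush AAV-null and 200.2 ± 12.9 in sham nerves. H3f3c and H3f3a-ps2 stayed near 1 CPM or below on average in all groups and did not pass, and 73.8% and 82.0% of their 50-base words were shared with other genes.

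Neither variant H1 gene passed the test in crush AAV-null against sham nerves. H1f0 codes for a linker histone that accumulates in cells that have stopped dividing, and is the variant gene with most counts among those that did not pass. It had 95.2, 84.2, 80.3, 110.4 and 84.5 CPM in the crush AAV-CNTF libraries, 81.2, 98.1, 76.2, 96.5 and 124 CPM in the crush AAV-null libraries and 124, 110.3, 119, 94.4 and 119.9 CPM in the sham libraries. The groups overlapped, and the log2 fold change was -0.25 ± 0.13 (SE; adjusted p = 0.155, edgeR). Without crush AAV-null replicate 6 it was -0.37 and was called lower (adjusted p = 0.0288, edgeR), as it was by limma-voom, at -0.33 (adjusted p = 0.0414). H1fx, the gene of another linker variant, had 12.98, 12.5, 11.1, 11.97 and 15.8 CPM in the crush AAV-CNTF libraries, 5.72, 15.7, 7.26, 6.72 and 7.65 CPM in the crush AAV-null libraries and 5.05, 4.85, 8.84, 1.56 and 6.44 CPM in the sham libraries. Every crush AAV-CNTF library lay above the sham libraries, and 4 of 5 crush AAV-null libraries lay within their range. This was a log2 fold change of 0.68 ± 0.36 (SE; adjusted p = 0.178, edgeR).

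**Figure D4:**
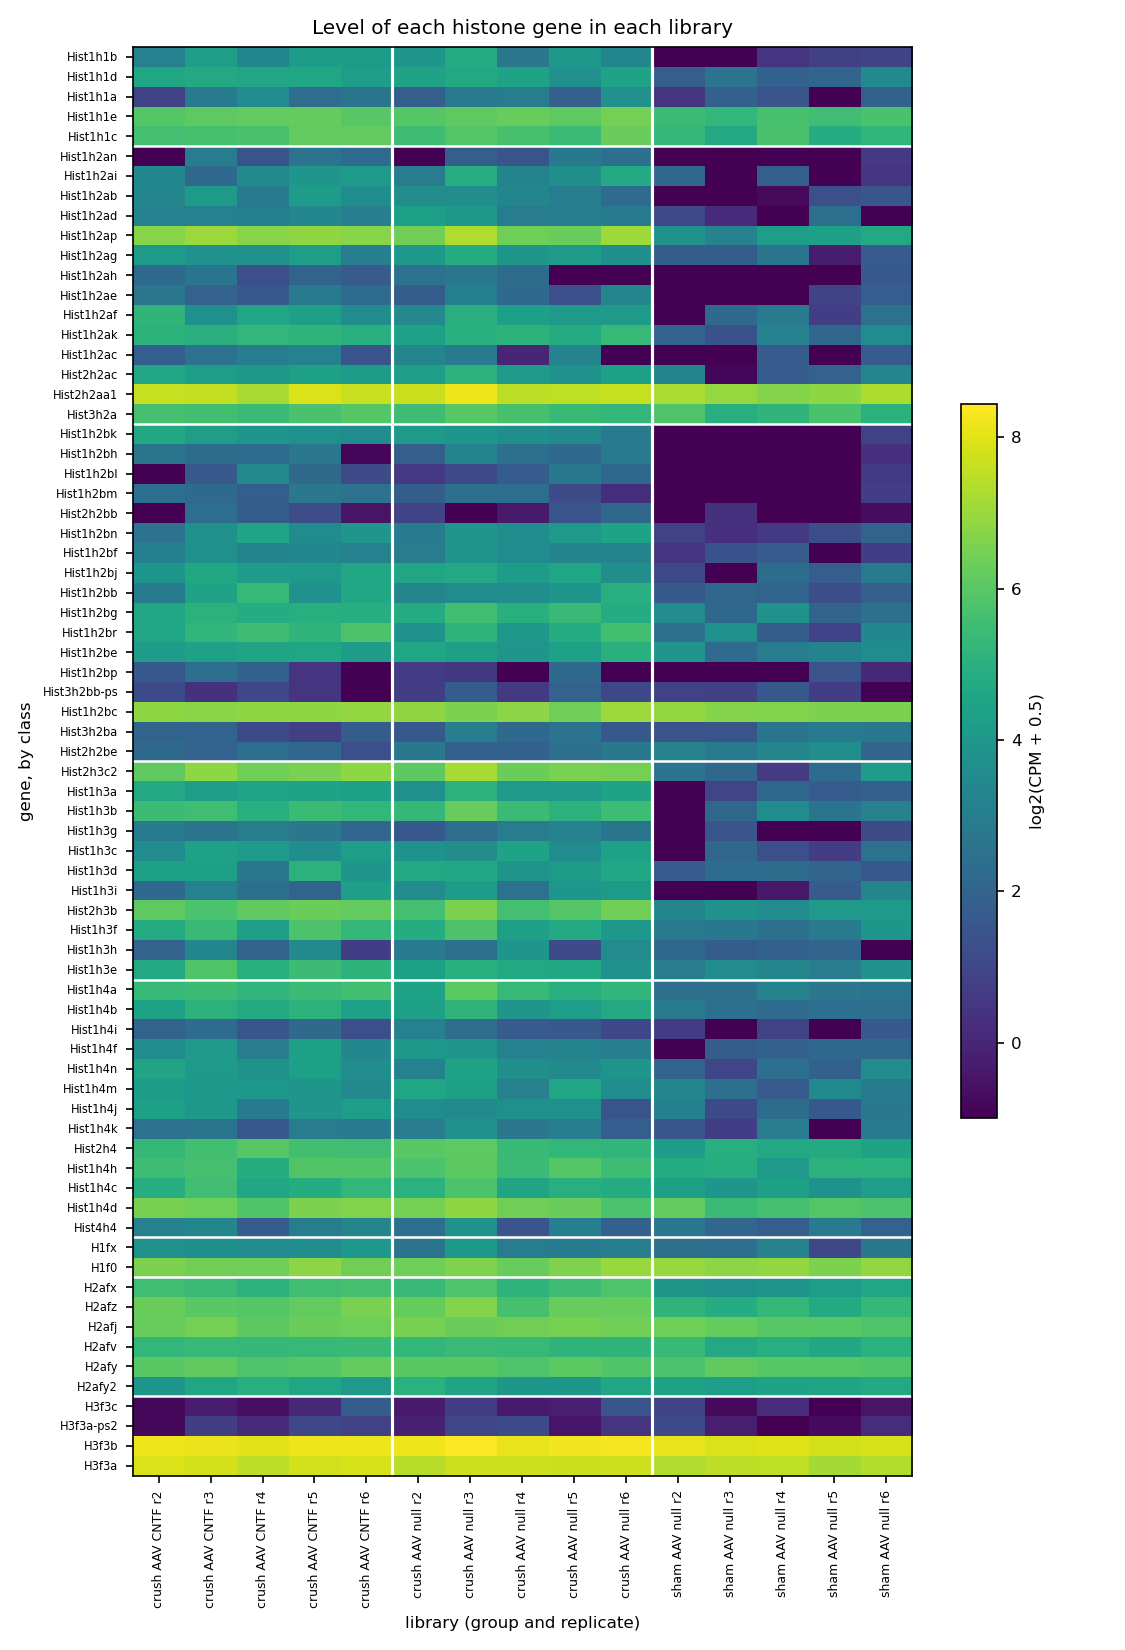
Level of each of the 72 histone genes in each of the 15 libraries, as log2(CPM + 0.5), with genes grouped by class and set and libraries by group, crush AAV-CNTF first, then crush AAV-null and sham. Low clustered genes are at or near 0 in most sham columns, and H3f3a, H3f3b and Hist1h2bc are high in all columns.

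The make-up of the histone RNA also differed between crushed and sham nerves. Of all H3 counts, clustered genes held 40.8 ± 3.22% in crush AAV-CNTF, 39.7 ± 4.34% in crush AAV-null and 12.3 ± 4.16% in sham nerves (SD, n = 5 each), with the lowest crush library at 36.0% and the highest sham library at 18.9%. Of all H2A counts, they held 60.6 ± 2.40% in crush AAV-CNTF, 60.2 ± 3.91% in crush AAV-null and 47.5 ± 3.63% in sham nerves. Of all H1 counts, they held 62.0 ± 3.19% in crush AAV-CNTF, 62.1 ± 2.83% in crush AAV-null and 43.0 ± 3.64% in sham nerves. In all 3 classes every crush library lay above every sham library. The summed variant H1 was 104 ± 12.02 CPM in crush AAV-CNTF, 104 ± 19.97 in crush AAV-null and 119 ± 14.1 in sham nerves (SD, n = 5 each), variant H2A was 320.2 ± 23.9 CPM in crush AAV-CNTF, 329 ± 30.8 in crush AAV-null and 232 ± 11.8 in sham nerves, and variant H3 was 509.8 ± 35.7 CPM in crush AAV-CNTF, 512 ± 35.95 in crush AAV-null and 414 ± 29.4 in sham nerves.

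The second comparison asked whether CNTF altered histone RNA after a crush. Of the 72 histone genes, 0 were called in crush AAV-CNTF against crush AAV-null nerves by edgeR, where 8 of 14194 genes were called in all (0.0564%). DESeq2 and limma also called 0 of the 72, although DESeq2 called 59 genes higher and 24 lower over the whole table. At an unadjusted p under 0.05, edgeR had 1 clustered and 0 variant genes, against 1091 of all 14194 genes tested. The median log2 fold change was 0.01 over the clustered genes, with a range from -1.05 to 0.93, and -0.03 over the variant genes, with a range from -0.13 to 0.58. Summed clustered RNA was 1.01-fold of that in crush AAV-null nerves, and the crush groups overlapped in every class. The single gene with an unadjusted p under 0.05 was Hist1h3e. It had 25.4, 58.5, 30.7, 43.3 and 34.3 CPM in the crush AAV-CNTF libraries, 20.05, 30.8, 26.1, 23.8 and 13.3 CPM in the crush AAV-null libraries and 7.399, 11.3, 9.35, 7.401 and 13.5 CPM in the sham libraries. Its crush groups overlapped, and the log2 fold change was 0.75 ± 0.24 (SE; adjusted p = 0.358, edgeR), with adjusted p from 0.216 to 0.658 over the alternatives. H1fx, at 0.58 (adjusted p = 0.78, edgeR), was the variant gene that differed most between the crush groups. A p that misses the threshold does not show that the groups are alike. For the abundant genes the error was nonetheless small, as for H3f3b, at -0.12 ± 0.08, and Hist1h1e, at -0.09 ± 0.12 (SE).

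The third comparison set crush AAV-CNTF against sham nerves, which are the same sham libraries as in the first. Of the clustered genes, 44 rose, 1 fell and 15 did not pass, with a median log2 fold change of 2.23, against 17.0% of all genes that rose and 14.3% that fell. The gene that fell was Hist2h2be, at -1.16 ± 0.38 (SE; adjusted p = 0.0244, edgeR). That call was lost without crush AAV-CNTF replicate 6 at -1.002, sham replicate 4 at -1.09 or sham replicate 5 at -0.99, by limma-voom at -1.06 (adjusted p = 0.0501) and on FPKM at -0.76 (adjusted p = 0.0768). Of the variant genes, 5 rose, 0 fell and 7 did not pass, with a median of 0.39. H1fx was among the 5, at 1.27 ± 0.36 (SE; adjusted p = 0.0107, edgeR), with H2afx at 1.38, H2afz at 1.14, H3f3a at 0.42 and H3f3b at 0.21. H1f0 did not pass, at -0.32, but was called lower in 7 of 25 alternatives, among them without crush AAV-CNTF replicate 5 at -0.40, crush AAV-null replicate 6 at -0.32 or sham replicate 5 at -0.39.

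Genes of the histone pathway were read from lists of 4 roles. For transcription and 3′ processing of clustered histone mRNA, 9 of 12 listed genes were in the table, of which 1 rose and 1 fell in crush AAV-null against sham nerves, with a median log2 fold change of 0.23. Over all genes tested, 14.7% rose and 12.9% fell, so these shares and those of the deposition list below are near the background. Slbp, whose protein binds the stem-loop, rose, with 17.7 ± 4.17 CPM in crush AAV-CNTF, 16.05 ± 1.41 in crush AAV-null and 6.95 ± 3.33 in sham nerves (SD, n = 5 each) and a log2 fold change of 1.21 ± 0.28 (SE; adjusted p = 0.00212, edgeR). Npat, a coactivator of clustered histone genes at the start of S phase, fell, with 52.1 ± 9.65 CPM in crush AAV-CNTF, 46.3 ± 10.5 in crush AAV-null and 72.8 ± 16.8 in sham nerves (SD, n = 5 each) and a log2 fold change of -0.65 ± 0.17 (SE; adjusted p = 0.00619, edgeR). Of 12 chaperones that serve replication, 5 rose and 0 fell, with a median of 0.395. Asf1b, which hands H3 and H4 to the assembly factors, averaged 6.03 ± 2.33 CPM in crush AAV-CNTF, 5.92 ± 3.12 in crush AAV-null and 0.959 ± 0.365 in sham nerves, a log2 fold change of 2.62 ± 0.53 (SE; adjusted p = 0.000673, edgeR). The 2 large subunits of chromatin assembly factor, Chaf1a and Chaf1b, rose by log2 fold changes of 0.97 and 2.18, and the others that rose were Hat1 at 1.06 and Ipo4 at 0.48. Of 12 genes that deposit replacement variants, 0 rose and 2 fell, with a median of -0.04. Hira, the scaffold of the complex that deposits replacement H3, averaged 15.7 ± 6.67 CPM in crush AAV-CNTF, 16.8 ± 4.07 in crush AAV-null and 28.5 ± 1.40 in sham nerves, a log2 fold change of -0.76 ± 0.26 (SE; adjusted p = 0.0344, edgeR), and Ubn2, a partner of it, was at -0.35. For the centromeric H3 and its loading, 3 of 4 genes rose and 0 fell. Cenpa, the centromeric H3 itself, which the naming rule leaves out of the 72, averaged 12.9 ± 3.84 CPM in crush AAV-CNTF, 11.1 ± 2.92 in crush AAV-null and 2.395 ± 1.55 in sham nerves, a log2 fold change of 2.22 ± 0.40 (SE; adjusted p = 0.000234, edgeR). In crush AAV-CNTF against crush AAV-null nerves 0 genes of these 4 lists were called by edgeR, and 2, Hinfp and Daxx, had an unadjusted p under 0.05 (adjusted p = 0.562 and 0.571, edgeR). Over all 14194 genes tested, 1091 had an unadjusted p under 0.05 by edgeR in that comparison.

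Genes of cell division were higher in the same libraries as the clustered histones. Over all genes tested, 14.7% rose and 12.9% fell in crush AAV-null against sham nerves. A single call in a list as short as 4 genes cannot be told from that share. Of 17 S phase genes 11 rose and 0 fell in that comparison, with a median log2 fold change of 1.29. Rrm2, a subunit of ribonucleotide reductase, averaged 26.4 ± 4.62 CPM in crush AAV-CNTF, 22.9 ± 4.94 in crush AAV-null and 1.57 ± 1.49 in sham nerves (SD, n = 5 each), a log2 fold change of 3.85 ± 0.55 (SE; adjusted p = 1.81e-05, edgeR). All 7 markers of dividing cells rose, and their sum ran from 271 to 374 CPM in crush AAV-CNTF, 261 to 378 in crush AAV-null and 11.6 to 34.8 in sham libraries. Mki67, the proliferation marker, averaged 168 ± 33.6 CPM in crush AAV-CNTF, 177 ± 31.1 in crush AAV-null and 13.3 ± 4.22 in sham nerves (SD, n = 5 each). Of the microglia and macrophage markers 8 of 9 rose, with sums of 1727 to 2343 CPM in crush AAV-CNTF, 2080 to 2653 in crush AAV-null and 794 to 1045 in sham libraries, and of fibroblast markers 4 of 6 rose, with sums of 3868 to 10520 CPM in crush AAV-CNTF, 4014 to 6806 in crush AAV-null and 1056 to 2366 in sham libraries. All 6 oligodendrocyte markers and 5 of 6 astrocyte markers fell, 2 of 6 markers of NG2 glia rose and 3 fell, and 3 of 6 lymphocyte markers fell. Sums of the oligodendrocyte markers were 12190 to 18000 CPM in crush AAV-CNTF, 14620 to 21460 in crush AAV-null and 36870 to 47740 in sham libraries. Of the endothelium markers 1 of 4 rose and 1 fell, both neutrophil markers in the table rose, 0 of 4 skeletal muscle markers passed, and of the red cell precursor markers the single one in the table did not pass. The part of these changes of markers in the histone results was not tested.

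Divergent pairs of H2A and H2B genes share a promoter region, and 8 such pairs had RefSeq windows that overlapped, by 233 to 279 bases. Both partners rose in 5 pairs and 1 partner in 3. Since 43 of all 60 clustered genes rose, these counts do not by themselves show that partners move together. Whether partners were more alike than other clustered genes was not tested. Among the 5 pairs in which both rose, log2 fold changes of the H2A and H2B partner were 2.60 and 2.69 for Hist1h2ag and Hist1h2bj. They were 2.64 and 2.11 for Hist1h2ap and Hist1h2br. The widest gap was that of Hist1h2ah, at 2.56 (adjusted p = 0.208, edgeR), and Hist1h2bk, at 5.49. In both, the sham counts came from sham replicate 6 alone, as given above.

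Near-identical sequence limits what a single clustered gene can show. In clustered genes a median of 49.6% of 50-base words also occurred in other annotated genes, up to 93.9%, against a median of 6.4% in the variant genes. RSEM shares such reads between genes, and 74.4% of the deposited counts of clustered genes and 38.9% of those of variant genes were not whole numbers. Of the 7 clustered genes under 10% shared words 4 rose, with a median log2 fold change of 1.02, of 23 at 10 to 50% 14 rose, with a median of 1.87, and of 28 at 50% or more 23 rose, with a median of 2.62. Over the genes that met the FPKM limit in sham nerves, the medians were 0.82 for 6 genes under 10%, 1.22 for 19 at 10 to 50% and 2.34 for 18 at 50% or more. Hist1h2bh and Hist1h2bm were not matched to GENCODE M21 and are in none of these bands. Also, 26 of the 72 genes overlap another annotated gene, such as Hist1h1e and Hist1h2be on the same strand.

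In the authors' deposited table of their own comparisons, 38 clustered and 5 variant genes were higher and 0 lower in crush over sham with AAV-null at an adjusted p under 0.05, and all 43 were among the 48 called by edgeR. For CNTF over null the authors' deposited table called 0, with a lowest adjusted p of 0.23. For crush AAV-CNTF over sham the authors' deposited table had 38 clustered genes higher and 1, Hist2h2be, lower, and 5 variant genes higher and 1 lower, the last being H1f0 at a log2 fold change of -0.32 (adjusted p = 0.0363). The share of all genes called in the authors' comparisons is not given here, so these counts have no background beside them.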

How the data were processed

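Total RNA was sequenced from 15 optic nerves, 5 in each of 3 groups. Per the submitters' processing notes, Trimmomatic 0.32, STAR 2.5.3a, RSEM 1.2.31, R 3.2.3, DESeq2 and mm10 were used. The labels' protocols name 2 library kits without assigning them to libraries, so kit and group cannot be told apart. Per the file headers, the authors deposited an RSEM expected count and an FPKM per gene and library. They also deposited a log2 fold change and an adjusted p-value per gene for each pair of groups. Counts were rounded and fitted with edgeR 4.0.16 in R 4.3.3, with TMM scaling and filterByExpr by group. The quasi-likelihood fit had 1 mean for each group, all 15 libraries and 12 degrees of freedom left over (biological coefficient of variation 0.371). Adjustment was by Benjamini-Hochberg over 14194 genes with 0.05 as the threshold. The SE of a log2 fold change is its size divided by the square root of F. Sums over genes are described without a test. FPKM is used to compare levels between genes and, as an alternative, between groups.

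The naming rule took up to 8 clustered and up to 6 variant genes with the largest changes among those called in crush AAV-null against sham (all 5 variant genes called), the gene of the highest FPKM of each class, and the gene of most counts among those not called in each set. Other genes with printed values, such as Hist2h2be, H1fx, Hist1h3e, Hist1h2ap and Hist1h4a, were chosen after their values were seen. The members, the lists and the markers were chosen with earlier results of these data known. One marker gene is not reported here and was left out of its list. Promoter windows came from RefSeq (GRCm38.p6) and stem-loops from GENCODE M21 transcripts (mm10), in which 70 of the 72 genes were found. Replicate numbers did not pair the libraries (correlations of deviations -0.053 to 0.11 over 15 pairs), and no 2 libraries were duplicates. Alternatives were RLE and upper quartile scaling, other filters on low counts, only the 10 libraries compared, a replicate block, limma 3.58.1 (voom, and log2(FPKM + 0.5)), DESeq2 1.42.0, and each library left out in turn. Leaving out crush AAV-null replicate 6 and sham replicate 6 together was added after the data were seen. The fitting steps were tested on simulated data.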

Additional observations from a re-analysis of the deposited data

Results flagged for a closer look

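In 11 of 87 groups of 5 libraries tested, 1 library stood apart from the other 4 by more than Dixon's 95% limit. That limit is meant for normal values, and where 4 libraries are at 0 any count in the other is flagged. Some sums were also tested beside their own members, and near-identical genes share reads. The count of 11 is therefore not set against a chance rate. Sham replicate 6 was the high library for 6 clustered genes. It had 1.25 CPM for Hist1h2bk, 0.729 for Hist1h2bh, 0.972 for Hist1h2an, 1.01 for Hist1h2bl and 1.13 for Hist1h2bm, with the other 4 sham libraries at 0 for each. It had 17.9 CPM for Hist2h3c2, against 1.07 to 5.64 in the other sham libraries. Crush AAV-CNTF replicate 6 was low for Hist1h2bh, at 0.0399 CPM against 4.37 to 6.12. Crush AAV-null replicate 2 was low for H3f3a, at 169 CPM against 207 to 210.2. Crush AAV-null replicate 3 was high for Hist2h2aa1, at 289.7 CPM against 179 to 206, and for the summed clustered H2A genes, at 715 CPM against 422 to 504.5. Crush AAV-CNTF replicate 4 was low for the summed variant genes, at 826 CPM against 936 to 979.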

How the results depend on the processing

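The precision is set by the spread between replicates, and reads shared among near-identical copies make single clustered genes uncertain. Clustered genes called higher numbered 40 to 46 in crush AAV-null and 43 to 47 in crush AAV-CNTF against sham with each library left out, and 46 and 47 with the replicate block. Clustered genes called lower in crush AAV-CNTF against sham numbered 0 to 1 with each library left out and 0 by limma-voom and on FPKM. Variant genes called higher numbered 3 to 5 in crush AAV-null and 4 to 6 in crush AAV-CNTF against sham with each library left out, 4 in both with the replicate block, and 3 in crush AAV-null without crush AAV-null replicate 6 and sham replicate 6 together. Variant genes called lower numbered 0 to 1 in both with each library left out, 1 in crush AAV-null by limma-voom, and 1 in crush AAV-CNTF by upper quartile scaling, with only the 10 libraries compared, by limma-voom and by DESeq2. No histone gene was called between the crush groups by edgeR, DESeq2 or limma, with the replicate block or with any library left out. The summed clustered log2 ratio was 1.67 on FPKM against 1.30 on counts in crush AAV-null over sham, and 1.66 against 1.32 in crush AAV-CNTF over sham. The summed variant ratio was 0.55 against 0.30 and 0.54 against 0.29. By limma on log2(FPKM + 0.5), the median log2 fold change of all genes was 0.171 and 0.168 in the same 2 comparisons. It was 0.00484 and 0.00518 by edgeR on counts. These are medians over single genes and not ratios of sums, so they are a different measure. Hist1h2bc, not called, ranged from -0.016 (without crush AAV-null replicate 6, a turn of sign) to 0.149 with each library left out, and was -0.040 without both replicates 6. The cause of these shifts was not tested. The replicate block changed the call of H3f3a, given above.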
